A study of Mus musculus with 10 samples.

Results

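Mitochondria keep a small circular genome of their own. Both of its strands are copied into long RNAs, which are cut mostly at the tRNA genes that lie between the others, and the freed mRNAs receive a poly(A) tail. The genome encodes subunits of respiratory complexes I, III and IV and of the ATP synthase, the rRNAs of the mitochondrial ribosome and the tRNAs used there. All other mitochondrial proteins are encoded in the nucleus.

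The mitochondrially encoded genes were taken as all genes whose symbol begins with mt-, which gave 37 of the 55367 genes counted. They are 13 protein-coding genes, 2 rRNA genes and 22 tRNA genes, and GENCODE M21 places each of them on the mitochondrial chromosome of GRCm38. Of these, 31 had a fragment in 1 neuron or more and 18 in 7 or more of the 10 neurons, namely the 15 protein-coding and rRNA genes with mt-Tm, mt-Te and mt-Tp. The remaining 6 genes, all tRNAs, had no fragment in any neuron.

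Each of the 10 samples is the aspirated content of 1 inspiratory neuron of the preBötzinger complex (preBötC), the brainstem network that generates the inspiratory rhythm, in slices from neonatal mice. The labels name no drug treatment. By drive latency and membrane currents, samples 4, 5, 6 and 7 were Type-1, sample 1 was Type-2, and samples 2, 3, 8, 9 and 10 could not be typed (Unknown). Samples 1, 5, 6 and 7 were Dbx1-derived neurons of Dbx1;Ai148 pups, in which Cre driven from Dbx1 switches on the calcium indicator GCaMP6f, on a C57Bl/6J or mixed C57Bl/6J;CD1 background. Samples 2, 3, 4, 8, 9 and 10 were WT neurons of CD-1 pups. This assignment is that of the sample labels, while figure legends of the study put other samples in each line. The text of the study pairs types and lines as the labels do, with the Type-2 neuron Dbx1-derived and all Unknown neurons from CD-1 mice. Every comparison of lines below holds only if the labels are right. Samples 1, 3, 5 and 8 were taken at P0, sample 10 at P1, samples 2 and 9 at P2 and samples 4, 6 and 7 at P3. Dbx1-derived neurons were found by their rhythmic fluorescence before recording and WT neurons by firing in time with the motor output after it, so line, background and manner of selection cannot be told apart. The labels name no animal, so no test between groups was made and a mean ± SD is over neurons. The libraries held 21392146 to 36629393 fragments counted on genes. In sample 4 the list of 8 neuronal genes took 0.025% of counts, against 0.271% to 1.47% in the other neurons, and the list of 8 microglial genes took 1.79%, against at most 0.294%. Values that rest on sample 4 are therefore also given without it. Samples 1 to 4 also stood apart as a set: of the 10405 genes that had a fragment in 7 or more neurons, 42.8% to 53.7% were at 1 FPKM or more (fragments per kilobase of gene and per 1000000 counted fragments) in these 4, 57.1% in sample 9 and 71.4% to 77.2% in the other 5. The study names samples 1 to 4 as those of lowest cDNA concentration.

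Several of these genes have a near-identical stretch in nuclear DNA, and the sequences are shown because a short read from such a stretch fits both places. The first 60 bases of mt-Co3 (chrM:8607-8666, plus strand, GRCm38, from the GENCODE M21 transcripts) and of its chromosome 1 copy Gm28437 (chr1:24613912-24613971, minus strand) are the same letter for letter.
mt-Co3: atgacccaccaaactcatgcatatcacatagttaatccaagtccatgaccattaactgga
Gm28437: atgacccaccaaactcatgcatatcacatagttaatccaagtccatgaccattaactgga
The first 60 bases of mt-Nd3 (chrM:9459-9518, plus strand) and of its copy Gm28438 (chr1:24613060-24613119, minus strand) differ at 1 base, shown in capitals, which is T3C counted from the first base of mt-Nd3.
mt-Nd3: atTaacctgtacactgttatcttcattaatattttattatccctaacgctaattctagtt
Gm28438: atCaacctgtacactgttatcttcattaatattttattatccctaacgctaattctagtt
Other members share bases with their neighbour on the mitochondrial genome. The end of mt-Atp8 and the start of mt-Atp6 overlap by 43 bases (in capitals, within chrM:7912-7984), and the end of mt-Nd4l and the start of mt-Nd4 by 7 (in capitals, within chrM:10152-10188).
mt-Atp8 to mt-Atp6: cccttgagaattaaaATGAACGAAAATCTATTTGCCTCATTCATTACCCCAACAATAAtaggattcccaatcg
mt-Nd4l to mt-Nd4: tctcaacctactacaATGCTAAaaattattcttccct

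The share of a library's counts on the 37 genes differed 45-fold between neurons. It was 1.13%, 7.37%, 7.83%, 9.85%, 0.253%, 0.219%, 1.25%, 5.05%, 7.78% and 0.347% in samples 1 to 10. The mean was 4.11% ± 3.84 (SD, n = 10 neurons) and the median 3.15%. The neurons fell in 2 ranges, with samples 1, 5, 6, 7 and 10 at 1.25% or less, samples 2, 3, 4, 8 and 9 at 5.05% or more, and none between. Counting error was small beside these steps: the exact 95% binomial interval was 0.217% to 0.221% in sample 6, the lowest, and 9.84% to 9.86% in sample 4, the highest. The reads carry no molecular identifiers, so these intervals cover counting error only, and no neuron was measured more than once. Samples 1 to 4 had a mean of 6.54% ± 3.77 (SD, n = 4 neurons) and samples 5 to 10 one of 2.48% ± 3.19 (SD, n = 6 neurons), and both sets held neurons of both ranges. Within samples 5 to 10 alone the share still differed 35.6-fold.

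**Figure D1:**
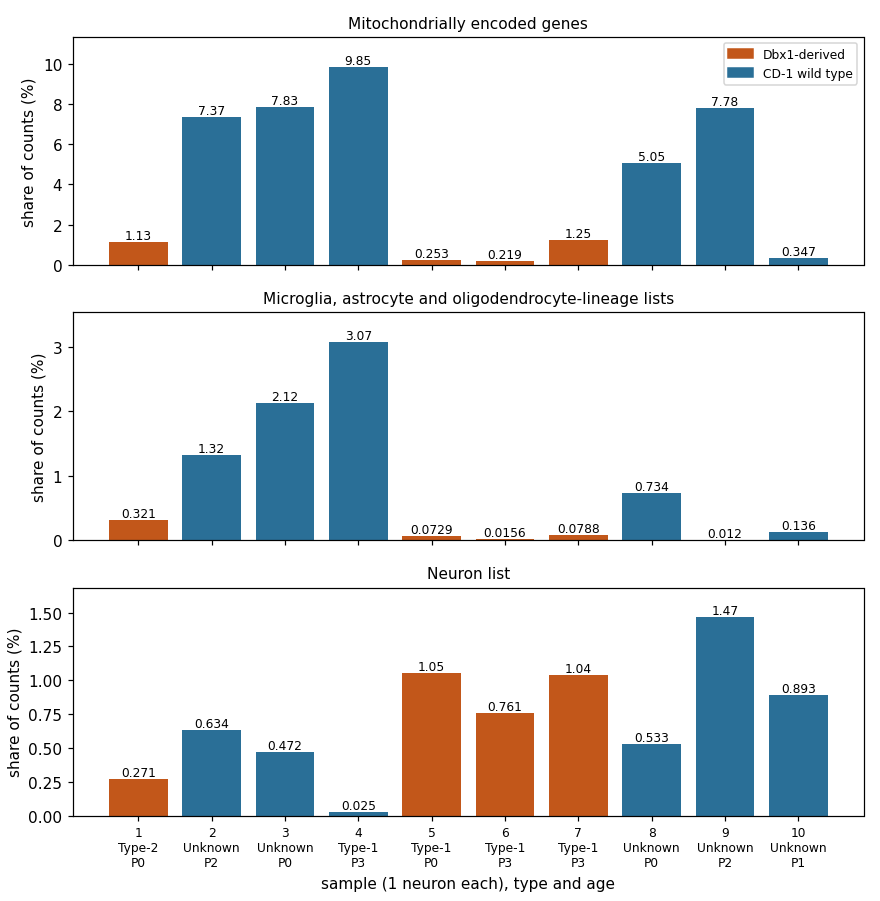
Share of counts (%, vertical axes from 0) in each of the 10 neurons (horizontal axis, with type and age) for the 37 mitochondrially encoded genes, the summed glial lists and the neuron list; orange bars are Dbx1-derived and blue bars WT neurons. Samples 2, 3, 4, 8 and 9 stand at 5.05% or more for the mitochondrial genes, and sample 9 does so with a glial share of 0.012%.

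The 4 Dbx1-derived neurons all lay in the lower range, with 1.13%, 0.253%, 0.219% and 1.25% in samples 1, 5, 6 and 7 (mean 0.714% ± 0.554, SD, n = 4 neurons). Of the 6 WT neurons, 5 lay in the upper range and sample 10 in the lower at 0.347%, so the ranges of the lines overlapped (mean of WT 6.37% ± 3.32, SD, n = 6 neurons; 5.68% without sample 4). The Type-1 neurons had 9.85%, 0.253%, 0.219% and 1.25% in samples 4 to 7, and sample 4 alone set their mean: it was 2.89% ± 4.66 (SD, n = 4 neurons) with that neuron and 0.575% without it. The Unknown neurons had 7.37%, 7.83%, 5.05%, 7.78% and 0.347% in samples 2, 3, 8, 9 and 10 (mean 5.68% ± 3.19, SD, n = 5 neurons). The Type-2 neuron had 1.13%. At P0 the share was 1.13%, 7.83%, 0.253% and 5.05% (mean 3.57% ± 3.52, SD, n = 4 neurons), and at P1 to P3 it was 4.47% ± 4.33 (SD, n = 6 neurons). Without sample 4 the latter mean was 3.39%, below that of P0.

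Per unit of length, the mRNA for subunit III of cytochrome c oxidase, mt-Co3, was the most abundant of the 13 protein-coding genes in all 10 neurons. Its level in FPKM was 540 in the lowest neuron, sample 6, 8078 at the median and 37932 in the highest, sample 4. Among all genes but the nuclear copies, mt-Co3 held rank 1 by FPKM in samples 4 and 8 and held rank 2 in samples 2, 3 and 9, rank 3 in sample 1 and rank 4 in sample 7. It ranked 46, 51 and 22 in samples 5, 6 and 10, the 3 neurons with the lowest mitochondrial share.

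The other subunits of cytochrome c oxidase, the catalytic mt-Co1 and mt-Co2, were also high. mt-Co2 ran from 292 FPKM in sample 5 to 16413 in sample 4, with a median of 4041. mt-Co1 ran from 272 FPKM in sample 10 to 9670 in sample 3, with a median of 4160. Sample 4, the highest for mt-Co2 and mt-Co3, had 6779 FPKM of mt-Co1, below samples 2, 3 and 9. The ATP synthase subunit mt-Atp6 held rank 2 of the 13 genes in 9 neurons and rank 3 in sample 1. Its level ran from 386 FPKM in sample 6 to 18388 in sample 4, with a median of 5787, and that of mt-Atp8, its neighbour in the same mRNA, from 60.2 to 3114 with a median of 722. mt-Cytb, the cytochrome b subunit of complex III, ran from 214 FPKM in sample 6 to 8567 in sample 2, with a median of 2881.

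Of the complex I subunits, mt-Nd1 was the highest, with 197 FPKM in sample 6, a median of 2519 and 6610 in sample 4. It held rank 6 of the 13 genes in 8 neurons. The means of mt-Nd4, mt-Nd5, mt-Nd2, mt-Nd3 and mt-Nd6 followed at 1216, 802, 773, 708 and 487 FPKM, with SDs of 1127, 805, 747, 731 and 498 (n = 10 neurons each). Within neurons, mt-Nd4 ranked above mt-Nd2 and mt-Nd6 in all 10, while the order of mt-Nd5, mt-Nd2 and mt-Nd3 changed from neuron to neuron. mt-Nd4l was the lowest, with a mean of 283 ± 321 FPKM (SD, n = 10 neurons), and ranked last in 7 neurons. mt-Nd6 is encoded on the other strand from the remaining protein-coding genes, and the cDNA kit does not mark the strand, so its fragments cannot be told from antisense RNA.

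**Figure D2:**
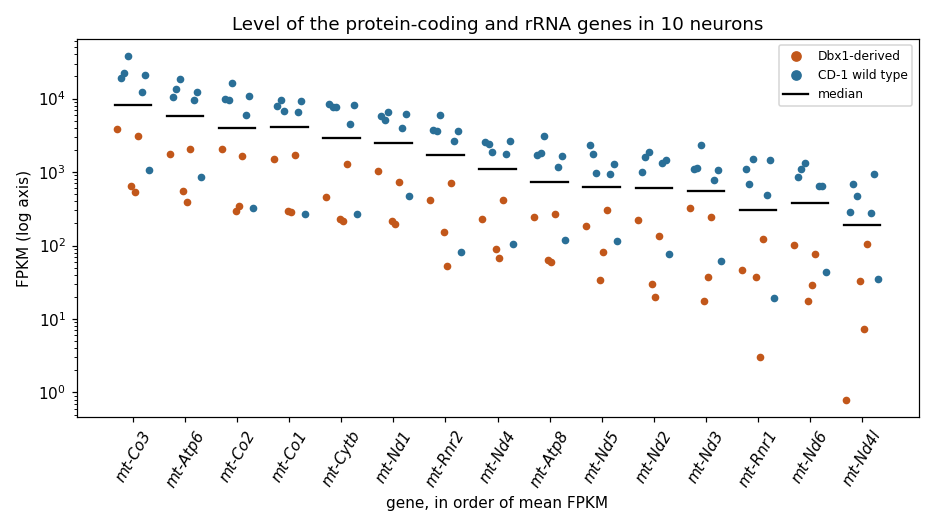
Level of the 13 protein-coding and 2 rRNA genes (FPKM, log axis) in order of their mean; each point is 1 neuron, placed left to right from sample 1 to 10 (orange Dbx1-derived, blue WT), and the line is the median. mt-Co3 runs from 540 to 37932 FPKM, and the point of mt-Nd4l at 0.787 FPKM is sample 1.

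The balance between the protein-coding genes varied far less than their total. As shares of the summed FPKM of the 13 genes, mt-Co3 took 27.7% ± 3.67, mt-Atp6 17.7% ± 2.69, mt-Co2 13.4% ± 2.45, mt-Co1 11.4% ± 2.56, mt-Cytb 8.86% ± 2.31 and mt-Nd1 8.12% ± 1.80 (SD, n = 10 neurons each). Together the 3 genes of cytochrome c oxidase took 52.5% ± 4.96, the 7 complex I genes 18.4% ± 2.43 and the 2 ATP synthase genes 20.2% ± 2.93 (SD, n = 10 neurons). The SD of a gene's log2 share had a median of 0.38 over the 13 genes, while the SD of the log2 mitochondrial share of counts was 2.23. The share of 8 of the 13 genes differed less than 3-fold between the highest and the lowest neuron. mt-Atp8 was among the steadiest, at 2.07% to 3.17%, and its FPKM was 0.141 ± 0.0172 (SD, n = 10 neurons) of that of mt-Atp6. The 2 genes overlap by 43 bases, and how fragments touching both were counted is not known. The nuclear copy of mt-Atp6 held 1477 to 70789 more fragments than mt-Atp6, which is 3.60 to 4.45 times the mt-Atp8 count. The ratio is thus one of counted fragments, and the part of the counting rule in it was not tested.

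The order of the 13 genes was much the same in every pair of neurons. Over the 45 pairs, Spearman's rho across the 13 genes had a median of 0.93 and ran from 0.83, a pair with sample 1, to 0.98. These are correlations across genes, which are not independent replicates, and gene length and sequence, common to all libraries, enter each of them. Single members varied between neurons nearly as much as other genes did. The SD of log2 CPM (counts per 1000000 counted) had a median of 2.31 for the 15 protein-coding and rRNA members and 2.53 over all 10405 genes that had a fragment in 7 or more neurons. The larger set was not matched to the members for level and includes genes without a fragment in some neurons. How the members compare with genes of like level was not tested.

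Single neurons departed from this balance at single genes. In sample 10 mt-Nd1 took 12.4%, against 6.07% to 8.72% in the other neurons, and mt-Co2 took 8.54%, its lowest share. mt-Co1 took 6.41% in sample 4 and 7.17% in sample 10, against 11.1% to 14.3% elsewhere. mt-Cytb took 3.87% in sample 1, against 7.06% to 12.0% in the others. mt-Nd5 was at 0.93% in sample 4 and at 3.57% in sample 6, and the FPKM of mt-Nd6 was 1.36 times that of mt-Nd5 in sample 4 but 0.245 to 0.701 times in the other neurons.

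The widest departure was that of mt-Nd4l, a small complex I subunit, in sample 1. It had 5 fragments there, or 0.787 FPKM, against 7.27 to 932 FPKM in the other 9 neurons, and its share differed 203-fold between the highest and the lowest neuron. The copy of mt-Nd4 on chromosome 1, Gm28439, is identical to bases 1 to 876 of mt-Nd4, which begin at the end of mt-Nd4l. In sample 1 its count was 5.72% of the mt-Nd4 count, against 24.8% to 34.5% in the other neurons. The gene on the other side of mt-Nd4l, mt-Nd3, had its highest share in sample 1, 2.68%. By these counts, the stretch with few fragments in sample 1 covered mt-Nd4l and the first part of mt-Nd4 but not mt-Nd3.

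**Figure D3:**
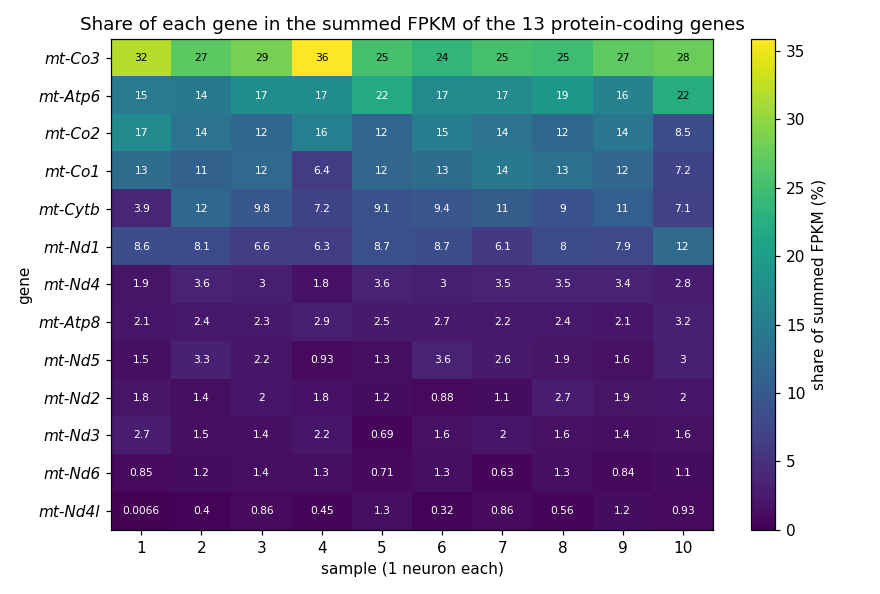
Share of each protein-coding gene (rows) in the summed FPKM of the 13 genes (%, colour scale and printed in each cell) for samples 1 to 10 (columns). The rows keep nearly the same colour across neurons, and mt-Nd4l in sample 1 and mt-Nd1 in sample 10 depart from theirs.

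The rRNAs of the small and the large mitochondrial ribosomal subunit, mt-Rnr1 and mt-Rnr2, were lowest in sample 6 and highest in sample 4, as was mt-Co3. mt-Rnr2 had 51.9 FPKM in sample 6, a median of 1692 and 5984 in sample 4. mt-Rnr1 had 2.99 FPKM in sample 6, a median of 306 and 1500 in sample 4. Their summed FPKM was 0.0557 ± 0.0191 (SD, n = 10 neurons) of that of the 13 mRNAs. The kit primes on poly(A) tails, which the mRNAs receive. The ratio is therefore one of captured fragments and need not be that of the RNAs in the neuron. Samples 6, 10 and 1 had the lowest ratios, at 0.0242, 0.0265 and 0.0383, and the other 7 neurons lay between 0.054 and 0.0761. mt-Rnr1 stood at 0.214 ± 0.0944 of mt-Rnr2 (SD, n = 10 neurons), from 0.0577 in sample 6 to 0.398 in sample 9.

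The tRNA genes were at the edge of detection. Between 2 and 14 of the 22 had a fragment in a neuron, with 4, 8, 7, 9, 2, 2, 5, 14, 8 and 5 in samples 1 to 10, and they took 0.0119% to 0.0876% of the mitochondrial counts. The 5 with the highest means were mt-Tp at 65.7 FPKM, mt-Tn at 65.6, mt-Tl1 at 15.8, mt-Tc at 14.5 and mt-Te at 10.2 (n = 10 neurons). At 59 to 75 bases these genes are shorter than 1 read, so their levels per length are uncertain. mt-Tn reached 403 FPKM in sample 4, from 843 fragments, against at most 95.2 FPKM elsewhere and 0 in samples 1, 6, 9 and 10. mt-Tp was spread more evenly, with 0 FPKM in sample 6, a median of 55.2 and 165 in sample 9. Of the 5, mt-Tp, mt-Tn, mt-Tc and mt-Te lie on the minus strand. The kit does not mark the strand, so their fragments cannot be told from antisense RNA and are not a measure of tRNA abundance. The genes of mt-Tp (chrM:15356-15422) and mt-Tn (chrM:5089-5159) are shown because they had the highest mean FPKM of the tRNA genes. mt-Tm (chrM:3845-3913, plus strand) is shown because its counts parted the lines.
mt-Tp: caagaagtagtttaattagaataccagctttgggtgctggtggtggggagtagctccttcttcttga
mt-Tn: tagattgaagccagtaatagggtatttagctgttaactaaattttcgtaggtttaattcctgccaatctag
mt-Tm: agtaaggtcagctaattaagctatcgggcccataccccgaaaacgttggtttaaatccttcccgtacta

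Ranges of CPM were compared between groups for the 18 members detected in 7 or more neurons. Between Dbx1-derived and WT neurons, mt-Tm was the 1 member of 18 whose ranges did not overlap (5.56%), against 2.63% of all 10405 genes. Its counts were 0, 0, 1 and 0 in samples 1, 5, 6 and 7, and 24, 25, 27, 27, 51 and 8 in samples 2, 3, 4, 8, 9 and 10. These are low counts: for a count of 0 the upper 95% limit is about 3, from counting error alone. Between Type-1 and Unknown neurons 0 of 18 members parted, against 1.37% of all genes. Without sample 4 it was 1 of 18, mt-Tm, against 5.85%, but the Type-1 neurons are then all Dbx1-derived and the Unknown neurons all WT, so type and line cannot be told apart and this repeats the comparison of lines on fewer neurons. Between P0 and the P2 and P3 neurons 0 of 18 parted, against 1.05% of all genes, and 0 without sample 4, against 2.13%. Without sample 4 the comparison of lines gave mt-Tm alone, against 3.23%. Within samples 5 to 10 it gave mt-Tm alone, against 11% of all genes, and the comparison of ages gave 0 members, against 19.1%. A single member is too few to set apart from these backgrounds.

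Sample 4 had the highest CPM for 10 of the 15 protein-coding and rRNA genes, and for 10 of the 18 members detected in 7 or more neurons, against 12.1% of all 10405 genes. The 5 others were mt-Co1, highest in sample 3, mt-Cytb and mt-Nd5, highest in sample 2, and mt-Nd4 and mt-Nd4l, highest in sample 9.

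The files list 15 nuclear genes whose sequence matches the mitochondrial genome at 90% identity or more over 90% or more of their length. Of these, 7 lie side by side on the minus strand of chromosome 1 (24611535 to 24616197), are annotated as unprocessed pseudogenes and held at least 99.9% of the fragments counted on all copies. They took 0.114% (sample 6) to 6.33% (sample 4) of a library. With them added the mitochondrial share ran from 0.333% to 16.2%, but near-equal counts at genes and copies, given next, mean that this sum may count the same fragments in both places. The other copies took at most 0.00372%.

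Of the 4 copies that matched nearly the whole of a gene without a mismatch, 3 had almost the same count as the gene. Gm28437 held 100.2% to 100.6% of the count of mt-Co3, Gm28661 99.8% to 100.1% of that of mt-Co2 and Gm10222 99.2% to 106.6% of that of mt-Nd4l in the 10 neurons. Gm28438, with its 1 mismatch, held 111.9% to 119.3% of the count of mt-Nd3. Gm10925, the other of the 4, is identical to mt-Atp6 over bases 1 to 678 of 681 but held 115.5% to 119.2% of its count, and none of the 7 copies matched mt-Atp8, the gene that shares bases with mt-Atp6. How the counting program treated fragments that match more than 1 place or more than 1 gene is not given in the sources used here. The counts of a gene and of its copy are therefore not taken as separate measurements.

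The remaining copies cover part of a gene and so show where along it the fragments fell. Gm28439 covers 63.6% of mt-Nd4 and held 24.8% to 34.5% of its count outside sample 1. Gm29216 covers the last 31.3% of mt-Co1 (bases 1063 to 1545, with the difference A1066T, positions counted from the first base of mt-Co1) and held 27.4% (sample 6) to 53.3% (sample 4) of its count. Samples 4 and 10, with 53.3% and 49.4%, were also those with the lowest share of mt-Co1 among the 13 genes. Over the 10 neurons rho between that share and the last-part percentage was −0.56, and −0.14 without samples 4 and 10. Both measures contain the mt-Co1 count, and the relation rests on those neurons.

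**Figure D4:**
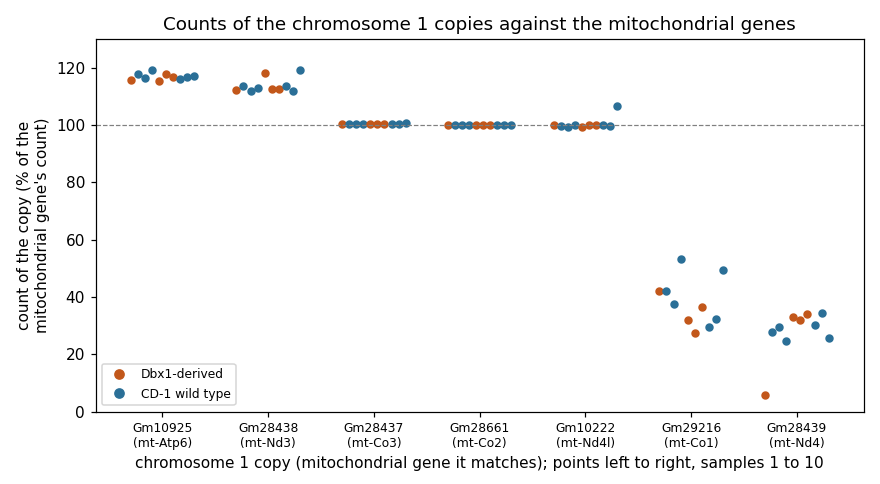
Count of each of the 7 chromosome 1 copies as a percentage of the count of the mitochondrial gene it matches (vertical axis from 0), with points left to right for samples 1 to 10 (orange Dbx1-derived, blue WT) and a dashed line at 100%. Gm28437, Gm28661 and Gm10222 lie on the line within 7 percentage points, Gm10925 and Gm28438 above it, and the partial copies Gm29216 and Gm28439 below it.

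Glial transcripts moved with the mitochondrial share in part. The summed lists for microglia, astrocytes and the oligodendrocyte lineage took 0.321%, 1.32%, 2.12%, 3.07%, 0.0729%, 0.0156%, 0.0788%, 0.734%, 0.012% and 0.136% of counts in samples 1 to 10. Samples 4, 3, 2 and 8 were the 4 highest for glial genes, and all 4 lay in the upper mitochondrial range. Sample 9 did not follow this: its mitochondrial share was 7.78% with the lowest glial share of all neurons. It had 1 of 8 microglial, 2 of 10 astrocyte and 0 of 8 oligodendrocyte-lineage genes at 1 FPKM or more. It also had the highest share of the neuron list, 1.47%. Of that list Nefl alone was highest in sample 9, at 1929 FPKM against at most 132 in any other neuron. Sample 1, with a glial share of 0.321%, nearly all of it astrocyte genes, had a mitochondrial share of 1.13%.

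Spearman's rho between the mitochondrial and the glial share was 0.62 over the 10 neurons, 0.48 without sample 4 and 0.26 without samples 3 and 4, the neurons farthest from the median glial share. Within samples 5 to 10 it was 0.086 (n = 6 neurons). These 6 include sample 9, which had the highest mitochondrial share of them, 7.78%, and the lowest glial share, 0.012%. The part of sample 9 or of samples 1 to 4 in this fall was not tested. Within the 6 WT neurons rho was 0.66, and the 4 Dbx1-derived neurons were too few for a value. By list over the 10 neurons it was 0.48 for microglia, 0.61 for astrocytes, 0.52 for the oligodendrocyte lineage and −0.41 for the neuron list. It was −0.31 with the number of genes that had a fragment and −0.26 with the library total. These values are a description: the shares in each point come from 1 library and sum to a whole, and the neurons form separate ranges. Lists for endothelial, mural and erythroid cells took at most 0.0032% in any neuron. The part of glial RNA in the mitochondrial share was not tested.

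The nuclear subunits that are built into the same complexes varied much less than the mitochondrial genes. The 21 genes listed, among them Cox4i1 and Cox5a of cytochrome c oxidase and Ndufs1 of complex I, were all measured and took 0.568% (sample 4) to 1.61% (sample 7) of counts, a 2.84-fold range beside the 45-fold range of the mitochondrial share. Over the 10 neurons, rho of single genes with the mitochondrial share had a median of −0.05, with 8 above 0 and 13 below, while over the 10378 genes of the same detection, members and copies left out, it had a median of −0.20, with 34.2% above 0. Sample 4, highest for the mitochondrial genes, was lowest for the partners, and rho between both shares was −0.27 over the 10 neurons and 0 without sample 4.

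Of 34 nuclear genes listed for the copying, transcription and processing of mitochondrial DNA and RNA, 25 were detected in 7 or more neurons. Their rho with the mitochondrial share had a median of −0.30, with 5 above 0 and 20 below, against the −0.20 and 34.2% of all genes. Their summed level ran from 390 CPM in sample 3 to 1613 CPM in sample 6, and its rho with the mitochondrial share was −0.73 (n = 10 neurons), −0.65 without sample 4 −0.50 without samples 3 and 4 and −0.49 within samples 5 to 10 (n = 6 neurons). The genes named next were picked after their values were seen. Hsd17b10, a subunit of the mitochondrial RNase P, was at 29.9 to 127 FPKM and the exonuclease Rexo2 at 15.9 to 58.8 FPKM in the 10 neurons. Tfam, the packaging and transcription factor of mitochondrial DNA, was at 0.0431 FPKM or less in samples 1 to 5 and at 6.93 to 17.2 in samples 6 to 10. Polrmt, the mitochondrial RNA polymerase, had a fragment in 3 neurons and stayed below 1 FPKM. Lrpprc, which stabilises mitochondrial mRNAs, was at 0.036 FPKM or less in samples 1 to 4 and at 10.2 to 26.4 in samples 5 to 10. Tfam and Lrpprc were thus near 0 in samples 1 to 4, the libraries with fewer genes at 1 FPKM or more. Tfam was also near 0 in sample 5, where 77.2% of genes detected in 7 or more neurons were at 1 FPKM or more. Slirp, of the same list, went the other way, at 2.82 to 6.82 FPKM in samples 1 to 4 and at 1.95 or less in samples 5 to 10. Mterf3, Ssbp1 and Fastkd5 were highest in sample 1, at 42.3, 40.5 and 45.6 FPKM, but not in samples 2 to 4 as a set. There Ssbp1 was at 0.423 FPKM or less and Fastkd5 at 0.0274 or less, while Mterf3 was at 0.0281, 0.0197 and 12.4. The part of library quality in these levels was not tested.

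The nuclear genes whose CPM followed the mitochondrial share most closely over the 10 neurons, of 6030 with a fragment in each neuron, were Gm11878, Rps23, Gm7392, Sparc and Rpsa-ps12. Their rho was 0.98, 0.96, 0.94, 0.93 and 0.93, and as the highest of 6030 values these are a description only. Rps23 encodes a protein of the cytosolic small ribosomal subunit and Sparc a secreted matrix glycoprotein, and the other 3 are annotated as processed pseudogenes. Rps23 ran from 73.1 FPKM in sample 6 to 1305 in sample 4, and Sparc from 0.108 FPKM in sample 5 to 1016 in sample 4. All 5 were highest in sample 4.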

How the data were processed

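RNA aspirated from 10 single neurons was converted to cDNA with the SMART-Seq v4 kit and sequenced in paired ends, 1 library per neuron. The authors trimmed the reads, aligned them with STAR 2.7.7a to GRCm38 and used featureCounts to obtain raw counts, which were deposited for 55367 genes. The deposited FPKM values are counts per kilobase of gene and per 1000000 fragments counted in that library. The kit primes on poly(A) tails, so RNAs without one are outside its aim, and it does not mark the strand. All 37 lengths of the mitochondrial genes are those of GENCODE M21. Nothing was normalized further, and CPM was computed from the counts. Libraries held 21392146 to 36629393 counted fragments. For a count of 0, 3 counts were taken as the approximate upper 95% limit, which covers counting error only.

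Shares were taken over all counted fragments, with exact 95% binomial intervals. Nuclear copies were found with BLAST 2.17.0 by matching GENCODE M21 transcripts to the mitochondrial transcripts, at 90% identity or more over 90% or more of the copy. No test between groups was made, since each sample is 1 neuron and the labels name no animal. Dixon's criterion served only to single out neurons. The members and lists were chosen with earlier results of these data known. The genes named were all protein-coding and rRNA members, the 5 tRNAs with the highest mean FPKM, copies with a mean of 1000 counts or more and the 5 nuclear genes with a fragment in all neurons that followed the share most closely. mt-Tm, Tfam, Polrmt, Lrpprc, Hsd17b10, Rexo2, Slirp, Mterf3, Ssbp1, Fastkd5, Cox4i1, Cox5a and Ndufs1 lie outside this rule. Alternatives were other denominators and units, lower depth by thinning, and leaving out neurons, copies or overlapping genes. The scripts were tested on simulated data. The work was done in Python 3.11.15 with pandas 2.3.3, NumPy 2.4.6, SciPy 1.17.1 and Matplotlib 3.10.9.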

Additional observations from a re-analysis of the deposited data

Results flagged for a closer look

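In 55 checks by Dixon's criterion, each of 1 group of neurons on 1 measure, 6 held a neuron that stood apart, where chance gives about 1 in 20 per check. The checks are not independent, since groups share neurons and a single value of sample 1 was flagged in several groups. The 6 are thus not compared with that rate. Sample 4 had the highest mitochondrial share of the 4 Type-1 neurons, 9.85% against 1.25% in the next. Sample 6 had the lowest ratio of rRNA to mRNA FPKM of the same type, 0.0242 against 0.0692. The first part of mt-Nd4, read from its chromosome 1 copy, held 5.72% of the mt-Nd4 count in sample 1, and this was the lowest value among the Dbx1-derived neurons (next 31.9%), the P0 neurons (next 29.4%) and all 10 neurons (next 24.8%). mt-Nd1 took 12.4% of the summed FPKM of the 13 protein-coding genes in sample 10, against 8.72% in the next neuron.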

How the results depend on the processing

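Of 68 alternatives to the main values, 57 moved them by less than the spread between neurons or, for counts and folds, by less than 1.5 times. The 68 leave out the shares of single neurons and of mt-Co3, where 48 alternatives moved the value and 14 did not. For single neurons the spread was counting error alone. The share of mt-Co3 among the protein-coding genes rose from 27.7% to 37% without the overlapping genes and mt-Nd6. The group means with 1 neuron left out are among the 57 and could not count as moved. Leaving out 1 neuron always shifts a mean by less than the SD of its group. The Type-1 mean thus counted as unmoved although it fell from 2.89% to 0.575% without sample 4. The order of the age groups did turn: the mean of P1 to P3 fell to 3.39% without sample 4, below the 3.57% of P0, and that of P0 rose to 4.67% without sample 5, above the 4.47% of P1 to P3. As a share of summed FPKM in place of counts, the mean mitochondrial share was 8.62% and the highest neuron stood 23.7-fold above the lowest. The median rho between neurons over the protein-coding genes was 0.951 in counts, 0.886 without the genes whose copy held over 10% of their count, and 0.905 without the overlapping genes and mt-Nd6. Without sample 4, an alternative chosen after seeing the data, it was 0.934, and 1 member parted Type-1 from Unknown neurons where 0 did with it. The ratio of rRNA to mRNA was 0.0907 in counts. The rho of mitochondrial and glial shares was 0.483 without sample 4, 0.262 without samples 3 and 4, 0.0857 without samples 1 to 4 (also chosen after seeing the data), and 0.442 with the mean log2(FPKM + 1) of the glial lists. The cause of these shifts was not tested. Leaving out 1 neuron at a time gave means of 0.534% to 0.879% for Dbx1-derived, 5.68% to 7.58% for WT, 0.575% to 3.79% for Type-1, 5.14% to 7.01% for Unknown, 2.15% to 4.67% for P0 and 3.39% to 5.32% for P1 to P3 neurons. No paired analysis was possible because each neuron has a number of its own and no test was made. The tRNA genes rest on few fragments, although thinning to the smallest total left 6.3 of them per neuron against 6.4.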
